A study of Caenorhabditis elegans with 2 samples.

Results

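Small nuclear RNA (snRNA) genes were examined for binding of the tagged transcription factor UNC-86 in *Caenorhabditis elegans* embryos. All 129 genes of the snRNA biotype in the Ensembl annotation of the WBcel235 assembly were taken, of 46890 annotated nuclear genes. For each gene, the nearest peak summit within 300 bp of the gene midpoint was looked up in every deposited peak list of the same build, named ce11. Chromatin immunoprecipitation followed by sequencing (ChIP-seq) had been carried out on whole hermaphrodites of strain OP476 at the late embryonic stage, 3.5 hours after the eggs were bleached for synchronization. Both libraries carried the unc-119(tm4063) allele on chromosome III and the wgIs476 transgene, from which UNC-86 is expressed with a C-terminal GFP-FLAG tag, and an antibody to GFP was used. The 2 libraries are biological replicates of a single group of the same strain, so no condition was compared with another, and a site bound in few cells cannot be told apart from a site bound weakly in many.

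snRNAs form the core of the spliceosome: U1 and U2 RNA recognise the 5′ splice site and the branch point, and U4, U5 and U6 RNA are its other snRNAs. Nematodes add spliced leader RNAs, which donate a short leader exon to many messenger RNAs by trans-splicing, and SmY RNAs that accompany them. In animals, snRNA promoters carry a proximal sequence element that is bound by the SNAPc complex, and U6 genes, which RNA polymerase III transcribes, carry a TATA box as well. UNC-86 is a POU homeodomain factor of class IV that specifies neurons such as the touch receptor neurons. In vertebrates, another POU factor, Oct-1, binds octamers upstream of many snRNA genes and recruits SNAPc.

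The label of snRNA was checked against the sequences themselves. The 129 genes were 22 to 187 bases long and fell into 28 families of at least 80% identity, 18 of which held a single gene. The largest family had 23 genes and is called here after W05B2.8. In 22 of its 23 genes it carried ACAGAGA, the stretch by which U6 RNA pairs with the 5′ splice site, and no gene outside the family had that stretch. A family of 19 genes, called after F08G2.10, had GTAGTA, the branch-point pairing stretch of U2 RNA, in 18. In the family of sup-6, 12 of 14 genes had ACTTACCTG, the 5′ splice site pairing stretch of U1 RNA. CCTTTTAC, the loop of U5 RNA that contacts exons, was present in 11 of the 12 genes of the F38E11.10 family, and AGCTTTGC, the start of U4 RNA, in all 5 of the C52E4.8 family. The annotation itself gives no U number to these genes, and the families are named here only by a gene and a shared stretch.

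The same biotype also held RNAs that act outside the conventional spliceosome. It listed 18 spliced leader genes named sls-2, of which 15 joined a single family together with ZK1251.14. A further 12 genes named sls-1 and 10 named smy were listed. The 22-base gene mir-1831, which is named as a microRNA, lies inside sup-39, and both were assigned the same summits. The set therefore mixes spliceosomal RNAs, trans-splicing RNAs, a microRNA-named entry and genes that the check left unassigned, and each result is given by family. Among the unassigned genes, W07G1.24, in a family of its own, held GTAGTA. The other unassigned genes had none of the stretches searched and no sls or smy name. Examples are B0213.21 to B0213.24, each of which overlaps an exon of a cyp-34A gene on the opposite strand.

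Repetition limits what a peak list can show at these loci. The 129 genes had 94 distinct sequences, and 44 genes were identical to at least 1 other member. In 48 genes no 30-base window of the gene occurred only once in the genome. The 150 bp upstream were more often unique, with every 30-base window unique at 68 genes and no window unique at 16. None of those 16 genes had a summit in any list. The labels and file headers do not say how reads from repeated copies were treated, so a missing summit at a repeated copy cannot be told apart from reads that could not be placed. The number of reads per library is not in the peak lists, so the depth is unknown.

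The authors' list of peaks past the irreproducible discovery rate threshold (IDR list) held 816 peaks, and its summits reached 7 of 129 snRNA genes, or 5.43% (95% Wilson interval 2.65 to 10.8), where 1.06% of all nuclear genes had such a summit. The pooled list, called by the authors on both replicates together, held 12784 peaks and reached 21 genes, or 16.3% (10.9 to 23.6), against 7.13% of all nuclear genes. In the separate lists, 25 genes had a summit in replicate 1 and 26 in replicate 2, where all nuclear genes gave 9.55% and 10.2%. A summit in both replicate lists was found at 14 snRNA genes, or 10.9% (6.58 to 17.4), against 3.74% of all nuclear genes. No list held a summit at 92 genes. These intervals cover counting error over genes only, and genes that share sequence or a summit are not independent.

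Set beside related classes, the share in the IDR list was 5.43% for snRNA genes, against 25.8% for 612 tRNA genes, 15% for 346 snoRNA genes and 1.92% for 261 miRNA genes. Protein-coding genes gave 0.115%, but their midpoints often lie far from their starts. In the pooled list the share was 16.3% for snRNA genes, against 53.4% for tRNA genes, 27.5% for snoRNA genes and 17.2% for miRNA genes. The differences between these classes were not tested.

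**Figure D1:**
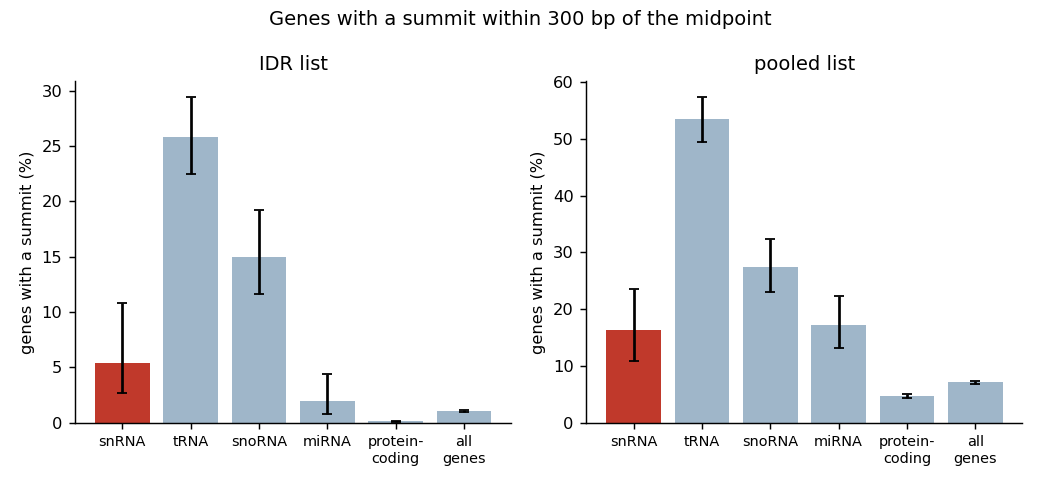
The bars give the percentage of genes of each class with a peak summit within 300 bp of the midpoint, in the IDR list (left) and the pooled list (right), and the error bars are 95% Wilson intervals. snRNA genes stand at 5.43% in the IDR list and 16.3% in the pooled list, above the 1.06% and 7.13% of all genes and below tRNA and snoRNA genes in both lists. miRNA genes stand at 1.92% in the IDR list and 17.2% in the pooled list.

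The pooled list was made to feed the IDR analysis and includes background regions. At a q value of 0.05 or less, as the deposited list gives it, 1097 pooled peaks were left, and 8 snRNA genes, or 6.20%, had a summit, against 1.31% of all nuclear genes. These were the 7 genes of the IDR list and C52E4.8. The remaining genes with a pooled summit had no summit that met this q value, and their values are given as a description of weak peaks.

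The 7 genes of the IDR list came from 2 kinds of RNA. They were 3 members of the W05B2.8 family, W05B2.8, F54D8.7 and C28A5.7, and 4 spliced leader genes, sls-2.1, sls-2.2, sls-2.4 and sls-2.9. Their nearest summits had a median signal of 122, ranging from 89.4 to 232, and the whole IDR list had a median of 90.9. Signal is the authors' value for each peak, set by the peak caller. It is compared here within a list, and between the replicate lists only by correlation. No gene of the sup-6, F38E11.10, F08G2.10, C52E4.8, sls-1 or smy families had an IDR summit.

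**Figure D2:**
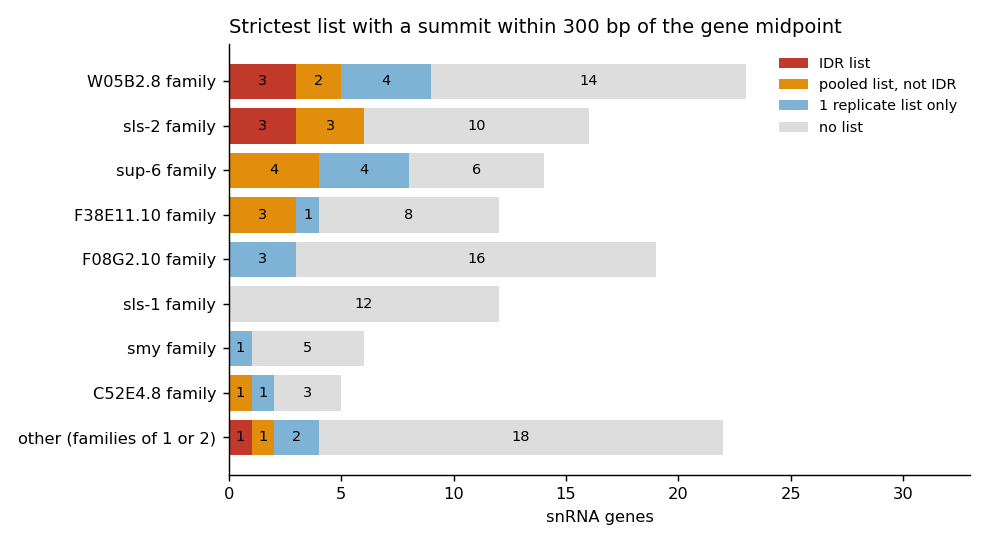
Each bar counts the snRNA genes of a family, split by the strictest list with a summit within 300 bp of the midpoint; families of 1 or 2 genes are joined in the lowest bar. IDR summits lay at 3 genes of the W05B2.8 family, 3 of the sls-2 family and 1 other gene, and the 12 sls-1 genes had no summit in any list.

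W05B2.8 gave the strongest peak at any snRNA gene. It lies on chromosome III at 10989679 to 10989780 of ce11, on the plus strand, in an intron of the protein-coding gene dhc-4. Its nearest summit had a signal of 232 in the pooled list, 105 in replicate 1 and 132 in replicate 2, and it ranked 39 of 816 in the IDR list, 59 in replicate 1 and 24 in replicate 2. The summit lay 18 bp inside the gene, counted from its 5′ end, and within 15 and 44 bp of that end in replicates 1 and 2. A second IDR peak of signal 97.8 had its summit 218 bp from the 5′ end. The gap of 200 bp between both summits recurred at sls-2.4, where it was 200 bp, and at sls-2.1, where it was 201 bp, and the windows of such paired peaks overlapped. A similar gap stood between weak summits too, as at F32B5.9 in replicate 1, with summits 48 and 249 bp from the 5′ end. Some other pairs were wider. The spacing was thus not particular to the IDR genes, and its origin was not tested.

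F54D8.7 lies at 5080798 to 5080898 on the minus strand of chromosome III, outside protein-coding genes. Its summit had a signal of 98.9 in the pooled list, 54.1 in replicate 1 and 42.2 in replicate 2, with ranks of 338, 325 and 507 of the list concerned. The summit position was nearly the same in both replicates, 11 bp and 16 bp inside the gene. C28A5.7 lies at 4426854 to 4426955 on the minus strand of chromosome III, in an intron of C28A5.6. Its signal was 89.4 in the pooled list, 42.0 in replicate 1 and 47.8 in replicate 2. Here the replicates placed the summit 77 bp inside and 35 bp upstream of the 5′ end.

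These 3 genes encode the same RNA as many others. The 102 bases of W05B2.8 occurred 17 times in the genome. What distinguishes the copies is the flanking DNA. The 90 bases upstream of the gene are printed for 6 copies from the RefSeq ce11 genome sequence, on the gene strand, to set copies with and without an IDR summit side by side. Capitals mark AACCC followed after 7 bases by GTC, which stands in the region where a proximal sequence element is known to lie. They also mark TATATAA, which is of the TATA box type. The stretch of AACCC and GTC was chosen after the upstream sequences of the bound genes had been read, and a match describes the sequence and does not show a bound site.
W05B2.8: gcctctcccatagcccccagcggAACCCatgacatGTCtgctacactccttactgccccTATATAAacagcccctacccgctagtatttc
F54D8.7: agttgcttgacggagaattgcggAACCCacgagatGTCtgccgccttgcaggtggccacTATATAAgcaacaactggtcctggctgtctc
C28A5.7: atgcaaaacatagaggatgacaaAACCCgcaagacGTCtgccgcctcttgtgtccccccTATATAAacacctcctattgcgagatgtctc
K09C6.12: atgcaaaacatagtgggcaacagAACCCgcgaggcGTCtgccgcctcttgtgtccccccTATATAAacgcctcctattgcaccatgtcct
R07E5.16: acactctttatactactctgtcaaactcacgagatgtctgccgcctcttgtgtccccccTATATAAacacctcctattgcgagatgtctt
K09B11.15: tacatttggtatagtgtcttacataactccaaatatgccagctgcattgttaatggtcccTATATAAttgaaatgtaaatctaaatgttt

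TATATAA on the gene strand, 15 to 40 bases upstream, was present at 16 snRNA genes, 15 of them in the W05B2.8 family, and at 1.09% of all nuclear genes in the same window. It began 30 or 31 bases upstream in every case. AACCC and GTC at this spacing were found in the 100 bp upstream of 38 genes, or 29.5%, against 0.228% of all nuclear genes. They began 55 to 71 bases upstream with a median of 59. The overlapping genes sup-39 and mir-1831 share the stretch and were both counted. Both stretches were present together at 6 genes, all in the W05B2.8 family. Of these 6, 3 were the family's genes with an IDR summit. The stretch of AACCC and GTC had been chosen from bound genes, so this count gives no support to a role of the stretch.

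The other 3 genes with both stretches were K09C6.12, Y17G9A.85 and T08B6.62. K09C6.12, at 859091 to 859192 of chromosome V, matched the 90 upstream bases of C28A5.7 at 77 positions, or 85.6%, yet its single summit was a weak peak of signal 14.4 in replicate 2, ranked 15939 of 18470. Y17G9A.85 had a single summit of signal 17.3 in replicate 1, and T08B6.62 had none in any list. Every 30-base window upstream of Y17G9A.85 and of T08B6.62 was unique in the genome, as was 95.9% of those upstream of K09C6.12. The same short upstream stretches therefore occurred at copies with and without a strong peak.

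Among the 10 genes with TATATAA and without AACCC and GTC, none had an IDR summit and 3 had a pooled summit. Because AACCC and GTC had been chosen from the bound genes, the lack of IDR summits among these 10 follows from that choice. R07E5.16 shares the TATA box region of C28A5.7 but has AACTC in place of AACCC, a difference of 1 base, with GTC after the same 7 bases of spacing. Its pooled signal was 53.4, with 18.8 in replicate 1 and 31.6 in replicate 2, and its summits lay 22 and 15 bp inside the gene. Y9C9A.111 had a pooled signal of 48.0, with 25.2 in replicate 1 and 23.7 in replicate 2, and a pooled summit 43 bp upstream of its 5′ end. M163.13, an 80-base gene of chromosome X in a family of its own, was at 26.3 in the pooled list and 15.3 in replicate 1, with no summit in replicate 2. The 6 genes K09B11.11 to K09B11.16, which cluster on chromosome IV, had TATATAA and no summit in any list.

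The spliced leader genes of the sls-2 group are named for the leader that trans-splicing places on downstream messages of operons. GTTTTAACC, from near the start of that leader, was present in 14 of the 18 genes with this name. Of the 18 genes with this name, 4 had an IDR summit, 7 a pooled summit and 5 a summit in both replicate lists. In contrast to the W05B2.8 family, no gene in this group shared its sequence with another member, and the median share of unique 30-base windows upstream was 100%.

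sls-2.1 lies on chromosome II at 5844865 to 5844974, on the plus strand and outside protein-coding genes. Its summit had a signal of 156 in the pooled list, 83.3 in replicate 1 and 73.7 in replicate 2, and lay 33 bp upstream of the 5′ end in replicate 1 and 35 bp in replicate 2. Its IDR rank was 133. A second IDR peak of signal 83.1 had its summit 168 bp from the 5′ end.

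sls-2.2 lies on the same chromosome at 5543598 to 5543707, on the plus strand. Its pooled summit had a signal of 122 and lay 161 bp from the 5′ end, beyond the 3′ end of the gene. Replicate 1 gave summits of 57.8 at 37 bp upstream and 59.97 at 185 bp downstream of the 5′ end, and replicate 2 gave 69.4 at 107 bp and 38.3 at 308 bp. Summits on both flanks of the gene were thus seen in replicate 1 only, and the pooled list had none upstream. sls-2.3 lies just downstream on the opposite strand. It had no summit in any list within 300 bp, and the IDR summit of sls-2.2 was also its nearest, 459.5 bp from its midpoint. It was the only snRNA gene with its nearest IDR summit between 300 and 600 bp away, while the farthest counted summit, at sls-2.9, was 232 bp from the midpoint.

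The promoters of sls-2.1, sls-2.2 and sls-2.3 are printed in the same way because they share long identical runs. Here capitals mark the stretches of at least 10 bases that are the same at the same position in all 3.
sls-2.1: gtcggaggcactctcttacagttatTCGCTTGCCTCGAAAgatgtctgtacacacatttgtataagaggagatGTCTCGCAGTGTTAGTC
sls-2.2: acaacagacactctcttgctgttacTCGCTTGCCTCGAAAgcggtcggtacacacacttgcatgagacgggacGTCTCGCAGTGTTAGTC
sls-2.3: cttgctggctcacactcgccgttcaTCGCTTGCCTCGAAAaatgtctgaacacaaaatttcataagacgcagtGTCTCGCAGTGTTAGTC
The RNA itself begins with the leader, in capitals over its 22 bases in the gene sequence of sls-2.1.
sls-2.1 gene: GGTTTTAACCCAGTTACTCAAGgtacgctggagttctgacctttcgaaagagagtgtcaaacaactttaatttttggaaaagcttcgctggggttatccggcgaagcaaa

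The upstream 15-base run, which spans positions 65 to 51 before the 5′ end, occurred 4 times in the whole genome on both strands together. All 4 matches lay upstream of a spliced leader gene: sls-2.1, sls-2.2, sls-2.3 and sls-2.4. Of these 4 genes, 3 had an IDR summit, and the remaining gene, sls-2.3, neighbours sls-2.2. The 17-base run that ends at the 5′ end occurred 3 times, at the genes printed above only. These runs were found after the summits were known. None of the 4 promoters had AACCC and GTC at the spacing above, which 9 of the 18 sls-2 genes had, and none had TATATAA.

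sls-2.4 is the fourth of these genes and lies at 4172206 to 4172315 on the plus strand of chromosome I, outside protein-coding genes. Its summit had a signal of 192 in the pooled list, 96.1 in replicate 1 and 102 in replicate 2, second among the snRNA genes, with an IDR rank of 79. The pooled summit lay 85 bp inside the gene and that of replicate 2 lay 164 bp from the 5′ end. A second IDR peak of 68.4 followed 285 bp from the 5′ end.

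sls-2.9, at 13297877 to 13297985 on the plus strand of chromosome I, had its signal beside the gene. Its IDR summit, of signal 107, lay 178 bp upstream of the 5′ end and inside a tRNA gene, M01E5.t1, 46 bp from that gene's own 5′ end on the opposite strand. The strong summits of the replicates were also there, at 195 bp upstream with a signal of 49.9 in replicate 1 and 196 bp upstream with 55.0 in replicate 2. Only a weak summit of replicate 1, with a signal of 15.8 and a rank of 9946, fell near the start of sls-2.9 itself. Binding of sls-2.9 and binding of the tRNA gene cannot be told apart here, and without it the count of snRNA genes with an IDR summit was 6. In 13 other members a gene of another small RNA class also lay within 600 bp, and none of these had an IDR summit. Most of them were sls-1 genes beside rRNA genes, where no 30-base window of the gene was unique. A missing summit there cannot be told apart from reads that could not be placed. This count therefore says little about the effect of such neighbours.

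A further 3 sls-2 genes had weak pooled peaks, all on chromosome III. sls-2.14 had a signal of 49.9 in the pooled list and 39.5 in replicate 1, and no summit in replicate 2. sls-2.15 had 43.6 in the pooled list, 26.4 in replicate 1 and 25.1 in replicate 2, but the replicates placed it 218 bp upstream and 92 bp inside the gene. sls-2.8 had 30.3 in the pooled list and 24.1 in replicate 2, with no summit in replicate 1. The other 10 genes with this name, besides sls-2.3, had no pooled summit.

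**Figure D3:**
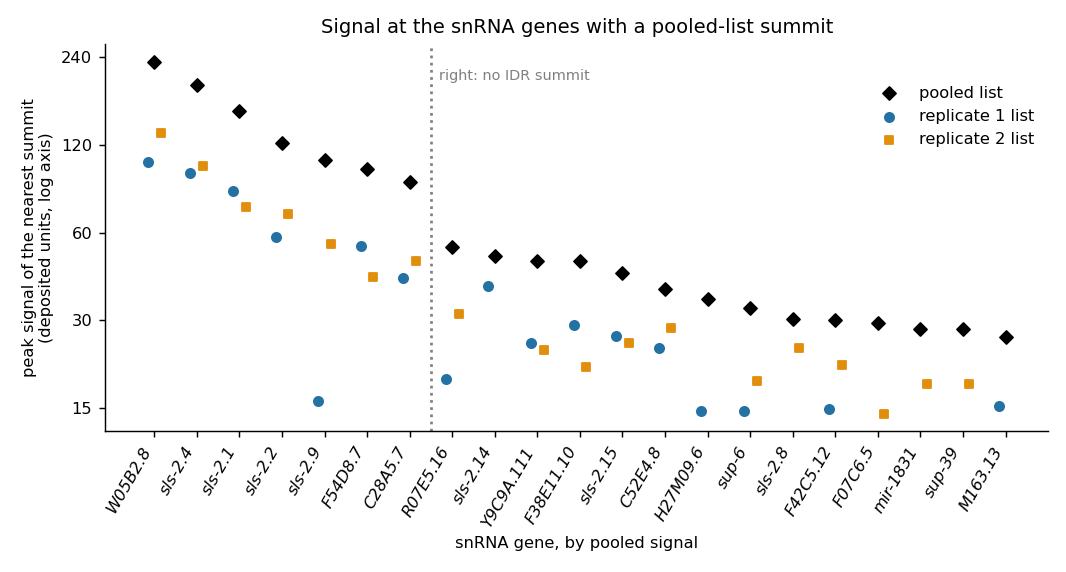
Peak signal (log axis) of the nearest summit is shown for the 21 snRNA genes with a pooled-list summit, ordered by pooled signal, in the pooled list (diamonds), replicate 1 (circles) and replicate 2 (squares); a missing mark means no summit in that list. Pooled signals run from 232 at W05B2.8 to 26.3 at M163.13, and the marks of sls-2.9 at 15.8 and 55.0 stand for different peaks, because a stronger peak of replicate 1 with 49.9 lies farther from the midpoint.

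In the sup-6 family, whose RNA stretch pairs with 5′ splice sites, 4 of 14 genes had a pooled summit and 1 had a summit in both replicates. That gene was sup-6 itself. Its nearest summits had a signal of 32.95 in the pooled list, 14.7 in replicate 1 and 18.6 in replicate 2, and lay 29 bp upstream, 3 bp inside and 28 bp upstream of the 5′ end. A stronger peak stood past the 3′ end of the 165-base gene in all 3 lists, with 51.0 in the pooled list at 206 bp from the 5′ end, 20.3 in replicate 1 at 217 bp and 26.8 in replicate 2 at 201 bp. H27M09.6 had 35.5 in the pooled list, but its summit lay 261 bp from the 5′ end, past the gene. sup-39 and mir-1831 shared a peak of 28.0, seen in replicate 2 at 18.2 and not in replicate 1. That peak of sup-6 was the strongest of the family in the pooled list and ranked 1412 of 12784.

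The F38E11.10 family, with the exon-contacting loop, had a pooled summit at 3 of 12 genes. F38E11.10 had 47.9 in the pooled list, 28.8 in replicate 1 and 20.7 in replicate 2, with summits 144 and 131 bp upstream of the 5′ end. F42C5.12 had 30.1, 14.9 and 21.2 in the same lists, but the summits lay 341 and 288 bp from the 5′ end and well past the 122-base gene. F07C6.5 had 29.3 in the pooled list and 14.3 in replicate 2.

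C52E4.8 stood closest to the IDR genes by q value. It lies on chromosome V at 11980118 to 11980261, and the Sm protein gene snr-4, which encodes a subunit of the ring that assembles on snRNAs, starts nearby. The nearest summit had a pooled signal of 38.3 at 159 bp from the 5′ end, but a stronger peak of 62.8, ranked 881 of 12784, had its summit 44 bp upstream. In the replicates, the strongest summits had signals of 37.5 at 105 bp upstream and 28.2 at 42 bp inside the gene. The pooled peak of 62.8 was also the strongest within 1000 bp of a transcript start of snr-4, 351 bp upstream of it, so both genes share it. None of the other 4 genes of the family had a pooled summit.

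The F08G2.10 family, with the branch-point pairing stretch, had no summit in the IDR or the pooled list at any of its 19 genes. Summits in a single replicate were found at 3 genes, the strongest at F08G2.10 with 27.8 in replicate 1. In 11 of the 19 genes no 30-base window of the gene itself was unique, while at 7 of the 19 every upstream window was. Of the 7 with unique upstream DNA, T14B4.10 alone had a summit, of signal 14.5 in replicate 1. That summit lay 288 bp from the 5′ end, past the 186-base gene. The part that repetition plays in the missing summits was not tested.

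No sls-1 gene had a summit in any list. The 12 genes stand in a tandem array on chromosome V with 5S rRNA genes, no 30-base window in any of them was unique, and at 11 of the 12 no upstream window was unique either. Whether these genes lacked binding or reads that could be placed cannot be told apart from these lists. Of the 10 smy genes, none had a pooled summit, smy-1 had a summit of 33.6 in replicate 1, 305 bp from its 5′ end, and smy-5 had 15.97 in replicate 2.

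For comparison, promoters of other families are printed with AACCC and GTC in capitals where they stand at the same spacing, to show that a related upstream stretch occurs at genes with weak peaks or none. The sup-6 promoter has it, and F38E11.10, C52E4.8 and F08G2.11 have similar letters that differ from it at 1 or more bases. M163.13 has TATATAA, in capitals.
sup-6: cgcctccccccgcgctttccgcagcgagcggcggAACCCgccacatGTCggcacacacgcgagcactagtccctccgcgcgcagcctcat
F38E11.10: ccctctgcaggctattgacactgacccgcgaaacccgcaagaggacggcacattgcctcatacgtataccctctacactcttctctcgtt
C52E4.8: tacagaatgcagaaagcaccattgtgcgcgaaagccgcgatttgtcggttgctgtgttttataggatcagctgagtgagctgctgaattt
F08G2.11: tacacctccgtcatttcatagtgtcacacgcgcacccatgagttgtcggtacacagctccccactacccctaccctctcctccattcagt
M163.13: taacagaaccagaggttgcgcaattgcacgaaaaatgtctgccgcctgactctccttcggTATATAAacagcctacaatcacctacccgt

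Of the 32 snRNA genes with AACCC and GTC and without TATATAA, none had an IDR summit and 8 had a pooled summit. Both counts include sup-39 and mir-1831, which overlap and share the stretch and the pooled summit. The 81 genes with neither stretch included the 4 sls-2 genes of the IDR list and 7 genes with a pooled summit in all.

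Letters that POU factors are known to prefer were counted in the upstream 100 bp, and these counts of 0 or 1 are too small to set apart from the shares of all genes. The octamer ATGCAAAT, searched on both strands, occurred at 0 of 129 snRNA genes (95% Wilson interval 0 to 2.89%) and at 0.915% of all nuclear genes. GCAT and TTAAT 2 bases apart, a class IV POU pattern, occurred at 1 snRNA gene and at 0.102% of all genes, and AATGCAT, a subsite known from the mec-3 promoter, at 1 snRNA gene and at 1.29%. None of these matches lay at a gene with a pooled summit. The searched 100 bp left out most IDR summits: 3 lay inside the gene, 1 beyond its 3′ end and that of sls-2.9 178 bp upstream. Sequence at those summits was not searched. TATAAA on either strand was found at 16.3% of snRNA genes and 17.5% of all genes, and TATATA, which overlaps TATATAA, at 15.5% of snRNA genes and 5.07% of all genes.

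The summits lay around the genes' 5′ ends. In the IDR list the median position was 11 bp inside the gene, with 3 summits upstream, 3 inside the gene and 1 beyond its 3′ end, and 5 of 7 were within 100 bp of the 5′ end. In the pooled list the median was 11 bp upstream, and 13 of 21 were within 100 bp. The window was centred on the midpoint of short genes, so most summits had to fall near the gene. Each IDR gene's 5′ end was at least 617 bp from the nearest protein-coding transcript start, and up to 2839 bp. Of the 14 snRNA genes with such a start within 300 bp, none had an IDR summit and 2 had a pooled summit. A protein-coding gene enclosed 63 members, of which 2 had an IDR summit, against 5 of the 66 outside.

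**Figure D4:**
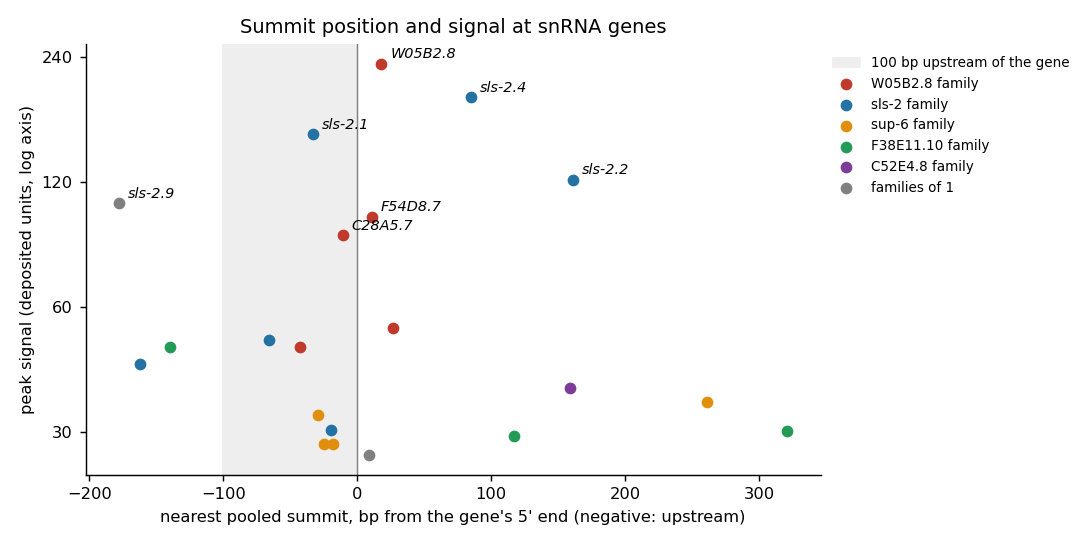
The nearest pooled summit of each of the 21 genes is placed by its distance from the gene's 5′ end (negative is upstream) and its signal on a log axis, coloured by family; the 7 genes of the IDR list are named. Of the 21 summits, 13 lie within 100 bp of the 5′ end, and sls-2.9 and sls-2.2 are the IDR genes outside that range.

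Signals of the replicates were set side by side at each gene. Over the 14 genes with a summit in both replicate lists, Spearman's rho of the nearest summits' signals was 0.763 and Pearson's r of log2 signal was 0.835. This describes genes of the same libraries, both calls used a control, and genes missing from either list are left out. With the strongest summit in the window in place of the nearest, chosen after seeing the data, rho was 0.859 and r was 0.918. The nearest summits of the replicates were a median of 60 bp apart over these 14 genes and 79 bp apart over the 7 IDR genes. At some genes the nearest summits belong to different peaks, as at sls-2.9. The closest pair of replicate summits in the window was a median of 40.5 bp apart over the 14 genes, from 1 bp at sls-2.9 to 310 bp at sls-2.15. Over the 7 IDR genes that median was 28 bp, with 112 bp at C28A5.7 as the widest.

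**Figure D5:**
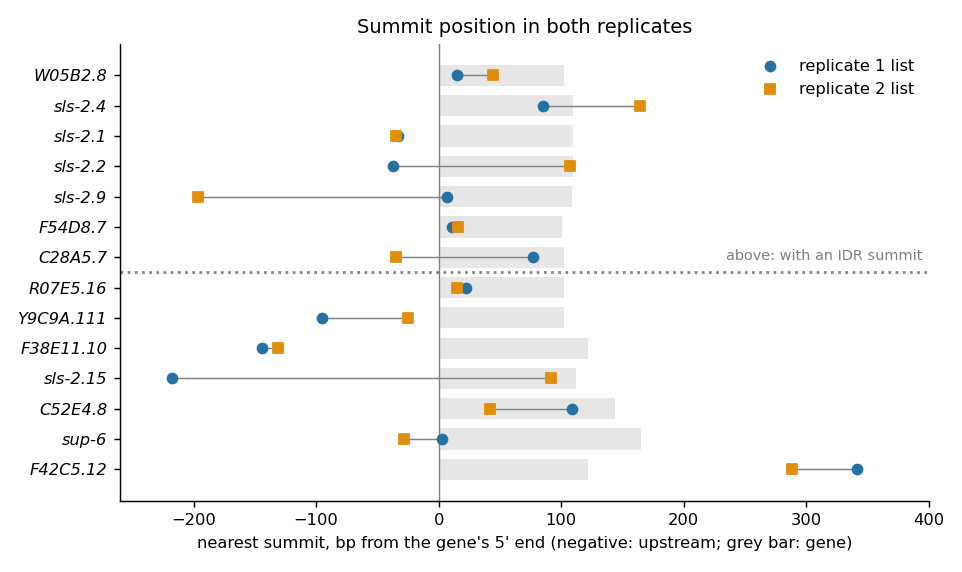
For the 14 genes with a summit in both replicate lists, circles (replicate 1) and squares (replicate 2) give the nearest summit's distance from the gene's 5′ end in bp, and grey bars give the gene. Genes above the dotted line have an IDR summit; the nearest summits of sls-2.1 are 2 bp apart and those of sls-2.15 are 310 bp apart. At sls-2.9 the marks are different peaks, since the stronger summit of replicate 1, which is not drawn, lies 1 bp from that of replicate 2.

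Genes for proteins that make or bind snRNAs were counted in the same lists, by summits within 1000 bp of a transcript start. Of 59 listed symbols, 54 matched protein-coding genes. An IDR summit was found at 5 of the 54, where 4.07% of all protein-coding genes had it, and a pooled summit at 28, where the share was 29.1%. Of the matched genes of the SNAPc and basal transcription factors, none of 9 had an IDR summit and 4 had a pooled summit. Among these 4 were snpc-4, a SNAPc subunit, at 35.8 and tbp-1, the TATA-binding protein, at 30.2. Their summits lay 812 bp upstream of the start at snpc-4 and 358 bp downstream at tbp-1. In the Integrator complex, which cleaves nascent snRNAs, 2 of 11 had an IDR summit, ints-8 at a signal of 173 and ints-4 at 101, and 7 had a pooled summit. The IDR summit lay 887 bp downstream of the start at ints-8 and 49 bp downstream at ints-4. Of 7 Sm genes, 2 had an IDR summit, snr-1 at 271 and snr-2 at 69.2, and 4 had a pooled summit. Those IDR summits lay 436 bp upstream at snr-1 and 415 bp upstream at snr-2. In the LSm group, whose ring binds U6 RNA, 1 of 8 had an IDR summit, lsm-3 at 96.0, with the summit 983 bp upstream, and 4 had a pooled summit. None of 16 genes for other snRNP proteins had an IDR summit and 6 had a pooled summit. All 3 genes of the spliced leader snRNP proteins, sna-1, sna-2 and sna-3, had a pooled summit, with signals from 30.6 to 40.9. None had an IDR summit. The pooled summits lay 747 bp downstream of the start at sna-1, 255 bp upstream at sna-2 and 288 bp upstream at sna-3. The signals at sna-1 and sna-2 were below 31.8, the median of the pooled list.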

How the data were processed

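ChIP-seq peaks of UNC-86-GFP were analysed from the ce11 lists of 2 biological replicates, which are whole-organism samples of 1 group, per the labels. Each peak's signal value and −log10 q value are those of the authors' deposited lists. The lists came from alignments and a control, per the file headers, which do not name the caller, the aligner or the IDR threshold. The ce10 lists were not used. Genes came from Ensembl release 115 (WBcel235), and RefSeq names were matched by WormBase ID for all 129 members. Families joined genes of at least 80% identity over at least 80% of the shorter gene. Computation used Python 3.11.15, numpy 2.4.6, pandas 2.3.3, SciPy 1.17.1 and Biopython 1.88. The summit search was tested on simulated data. No test between groups was possible. Named were the genes with an IDR summit, up to 10 more by pooled signal, each family's leading copy and genes with an IDR summit 300 to 600 bp away; others were chosen after their values were seen. The members and lists were chosen with earlier results of these data known. Alternatives changed window, anchor point, list and counting unit.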

Additional observations from a re-analysis of the deposited data

How the results depend on the processing

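The count of 7 snRNA genes with an IDR summit stayed within 1.5 times under each of its 10 alternatives, which gave 6 to 9, and the single-replicate lists gave 7 and 9. The 2 genes gained from the 816 strongest peaks of replicate 1 were sls-2.14 and C52E4.8. The 21 genes with a pooled summit became 16 to 26 under 5 alternatives and 8 at a q value of 0.05 or less, which was chosen after seeing the data. The 14 genes with a summit in both replicate lists became 10 to 17 under 3 alternatives, and 7 when each replicate list was shortened to 816 peaks. The median position of the IDR summits, 11 bp inside the gene, was set beside 22 bp over the 25 genes of the full replicate 1 list and 15.5 bp over the 26 genes of the full replicate 2 list, so the list and the genes changed together. The median pooled position, 11 bp upstream, was -1 bp at 150 bp of the midpoint, 9 bp at 500 bp, and the same 15.5 and 22 bp in the full replicate lists, so which side of the 5′ end it falls on depends on these choices. The median IDR signal of 122 was 139 at 150 bp of the midpoint, where sls-2.9 drops out. No paired analysis was possible because there is a single group. Depth is unknown and repeated copies limit every count.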
